A study of Mus musculus with 2 samples.

Results

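The 10 genes described here are stress-induced early genes, which mammalian cells switch on within a short time of a stimulus: Gadd45a, Gadd45b, Gadd45g, Ier2, Ier3, Ier5, Plk2, Plk3, Sgk1 and Csrnp1. They were chosen by name, and every non-control probe of a mouse Agilent array whose accession belongs to one of them was taken, which gave 11 probes, 2 of them for Ier5. They are 10 of the 20659 named genes with a probe on the array, and the software of the scanner flagged all 11 probes as well above background on both arrays. The study compared RAW246.1 cells given PBS, the mock treatment, with RAW246.1 cells given synthetic miR-122 at a stated 5 μg/mL. Each condition had 1 sample and 1 array, both on one slide, so no difference below has a replicate check, a standard deviation or a p-value, and the place on the slide cannot be told apart from the treatment. The cells are a cultured line kept in DMEM medium that the labels describe as macrophages, miR-122 is a microRNA made mainly by hepatocytes, and the labels give neither a strain, a carrier nor an exposure time. The comparison was made to ask how liver miR-122 bears on the inflammatory activation of alveolar macrophages, cells that were not themselves measured. The treatment text is identical for both samples and the title of the treated sample reads as if miR-122 had been left out, so groups follow the source name and the description, and each direction below rests on those labels. The extraction text names RIPA buffer although total RNA was labelled, and no gene was used here to check which sample received miR-122.

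Stress-induced early genes encode short-lived messenger RNAs whose promoters are read by factors already present in the resting cell. Gadd45 proteins are small nuclear proteins that bind PCNA, the CDK1 and cyclin B1 complex and the kinase MAP3K4, and through MAP3K4 they can activate the p38 and JNK kinases. The Ier proteins are products of immediate early response genes, Plk2 and Plk3 are stress-inducible relatives of the mitotic kinase Plk1, Sgk1 is a kinase related to AKT that is induced by serum and glucocorticoids, and Csrnp1 is a nuclear protein named for its cysteine- and serine-rich region. In macrophages several of these genes are known as early targets of Toll-like receptor and cytokine signals.

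Signals were taken as the scanner software deposited them and then, as log2, set against the 75th percentile of the same array, a scaling that removed an offset of -0.28 between the arrays (miR-122 minus PBS). A level below is a log2 signal on that scale, and a difference is the miR-122 level minus the PBS level. The software gives an error for each spot, which came to between 0.20 and 0.23 on the log2 scale for the difference of each of the 11 probes. This error covers the reading of a spot and not the spread between cultures, which 1 array a condition cannot give. Other probes that are printed 10 times varied less, with a median standard deviation of 0.08 for the difference of 1 spot (282 probes), while different probes of one gene varied more, with a pooled standard deviation of 0.30 over 3575 genes. Of the 12 macrophage markers 11 were well above background on both arrays, and their summed signal as deposited came to 88549 with PBS and 60072 with miR-122. Most of that sum came from Csf1r (46202 and 22246) and Cd14 (31514 and 30847). The 3 probes of Csf1r had scaled differences from -0.78 to -0.06. The markers went both ways, with a median difference of 0.03. Fcgr1 was 10.1-fold and Mrc1 2.15-fold higher with miR-122. Lower by the probe used were Itgam (-0.85, another probe at 0.36), Lyz2 (-0.71) and Adgre1 (-0.58). Over the settings described below, the lowest difference was 2.39 for Fcgr1 and 0.70 for Mrc1, so Mrc1 did not pass 2-fold under each. Cd68 had no matched probe. Fibroblast, epithelial, B cell and hepatocyte markers had summed signals between 50.1 and 102. Of the 6 hepatocyte markers, 4 were well above background with PBS and 3 with miR-122, Serpina1a being the brightest (30.4 and 50.2). Alb and Apoa1 were not well above background on either array. Neutrophil markers summed to 2219 and 2069, mostly from Elane and S100a8, and T cell markers to 1030 and 837, mostly from Cd4 and Cd3e. Whether any of these values has a part in the results was not tested.

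Each of the 10 genes had a higher scaled level with miR-122 than with PBS. Of these, 6 were 2-fold higher or more and 0 were 2-fold lower or more, with Sgk1, the kinase gene, at the top (5.00-fold), then Gadd45g (3.50-fold), Csrnp1 (2.91-fold), Gadd45b (2.39-fold), Gadd45a (2.23-fold) and Ier5 (2.02-fold). The remaining 4, Plk3, Plk2, Ier3 and Ier2, were between 1.34-fold and 1.94-fold higher. Among the 15023 named genes measured above background on the pair of arrays, 4.57% passed 2-fold upward and 1.78% downward. Sgk1 alone of the 10 passed 4-fold, which 0.812% of all genes did. The median difference was 1.09 for the 10 genes and 0.09 over all genes, of which 60.3% had a positive difference. These are descriptions by size, not tests. The share of higher genes among all past 2-fold was 71.9%, but 59.2% with quantile normalization, 59.9% in the authors' values, 50.8% with median scaling and 40.5% without scaling, so the balance of directions over all genes depends on the scaling.

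**Figure D1:**
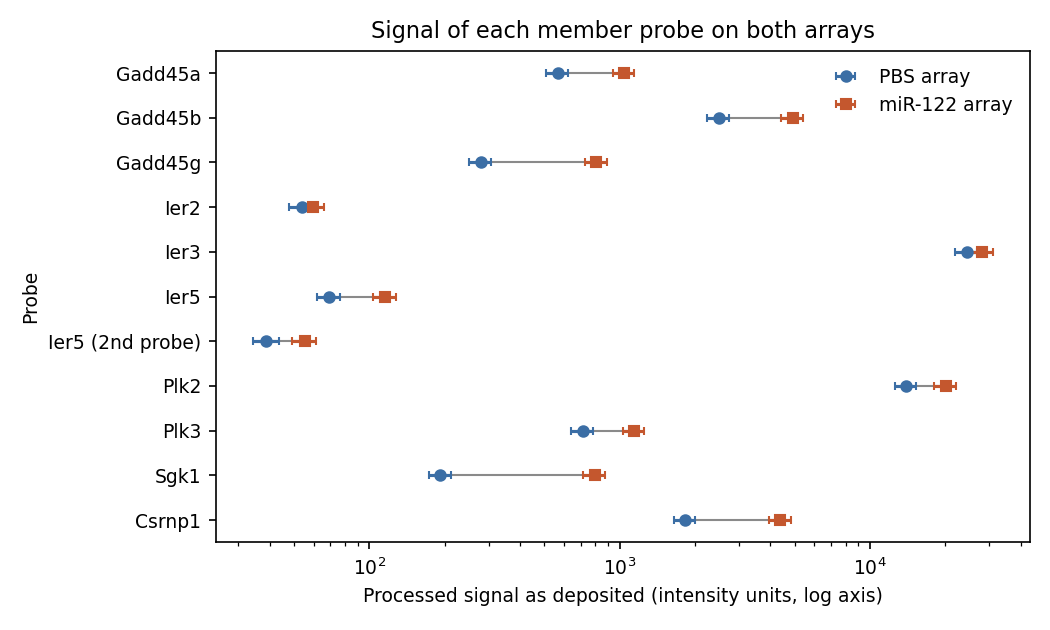
Processed signal of the 11 probes on the PBS array (circles) and the miR-122 array (squares), as deposited and on a log axis, with bars for the error of the scanner software. The squares lie to the right of the circles for every probe; the bars overlap for Ier2 and Ier3 and lie clear of each other for the other 9 probes.

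The fold depended on the scaling for the genes close to 2-fold. Without any scaling of the arrays, Sgk1, Gadd45g and Csrnp1 were at least 2-fold higher and Gadd45b (1.97-fold), Gadd45a (1.84-fold) and Ier5 (1.67-fold) were not. With each array scaled on its median, Gadd45b stayed past 2-fold and Gadd45a, at 1.97-fold, did not. The counts past 2-fold upward, with the share of all genes there, were 4 of the 10 genes and 3.14% with median scaling, 3 and 2.62% without scaling, 5 and 3.46% with quantile normalization, 5 and 3.81% with loess, 5 and 2.59% with normexp, and 5 and 3.51% in the authors' values. With flagged spots kept, 6 genes and 4.57% passed, with the mean over probes 5 and 4.31%, and with no filter on dim probes 6 and 6.57%. All 10 differences were positive under each of the 10 settings tried, and under each of them all 10 lay above the median difference of all genes under the same setting.

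**Figure D2:**
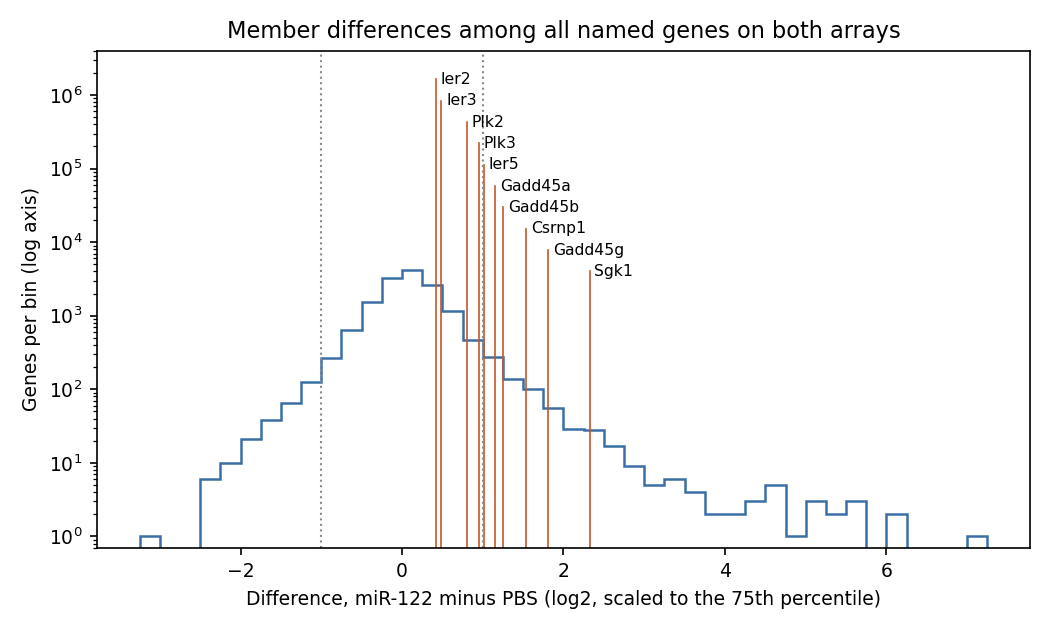
The stepped line counts the 15023 named genes in bins of 0.25 of their log2 difference (miR-122 minus PBS), with a log axis for the count; vertical lines place the 10 genes, with heights chosen only to separate the names, and dotted lines mark 2-fold. All 10 lie right of 0, from Ier2 at 0.42 to Sgk1 at 2.32, and 85 other genes lie right of Sgk1.

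The Gadd45 genes, whose proteins halt the cell cycle and feed the stress kinases, were all at least 2-fold higher under the main scaling. Of the 10 settings, Gadd45g passed 2-fold in 10, Gadd45b in 9 and Gadd45a in 8. Gadd45a, the family member known as a target of p53, had a signal of 567 ± 56.7 with PBS and 1043 ± 104 with miR-122, where ± is the error of the scanner software. Gadd45b, known as a target of NF-kB and TGF-beta, had 2494 ± 249 and 4914 ± 491. Gadd45g, first found as a gene induced by cytokines, had 279 ± 28.0 and 807 ± 80.7. On each probe the miR-122 signal lay above the PBS signal by more than the summed errors. After scaling, the differences were 1.16 for Gadd45a, 1.26 for Gadd45b and 1.81 for Gadd45g, and 490, 410 and 156 of the 15023 genes had a larger one. Gadd45g exceeded Gadd45a by 0.65 (error 0.29) and Gadd45b by 0.55 (error 0.29) in its difference, whereas Gadd45a and Gadd45b differed from each other by 0.10, less than the error of 0.29.

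The upstream sequence of each Gadd45 gene is shown because all 3 family members lay past 2-fold under the main scaling, so that their promoters can be read side by side. Each is the 250 bases before the annotated start of the gene, 5′ to 3′ on the strand of the gene, from RefSeq with the build GRCm38.p6. Capitals mark exact matches, on either strand, to the CCAAT box (CCAAT), the TATA box (TATAAA) and the E-box CACGTG.
Gadd45a, chr6:67037408-67037657, minus strand: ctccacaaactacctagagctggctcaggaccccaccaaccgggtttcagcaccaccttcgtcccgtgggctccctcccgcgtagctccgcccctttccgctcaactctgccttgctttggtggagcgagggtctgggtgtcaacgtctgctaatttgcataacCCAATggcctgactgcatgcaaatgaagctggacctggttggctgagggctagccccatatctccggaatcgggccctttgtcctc
Gadd45b, chr10:80929841-80930090, plus strand: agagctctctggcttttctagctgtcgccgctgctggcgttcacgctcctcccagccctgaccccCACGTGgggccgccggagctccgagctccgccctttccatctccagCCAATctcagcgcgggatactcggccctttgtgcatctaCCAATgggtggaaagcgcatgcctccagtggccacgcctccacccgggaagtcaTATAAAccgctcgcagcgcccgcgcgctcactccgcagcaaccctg
Gadd45g, chr13:51846425-51846674, plus strand: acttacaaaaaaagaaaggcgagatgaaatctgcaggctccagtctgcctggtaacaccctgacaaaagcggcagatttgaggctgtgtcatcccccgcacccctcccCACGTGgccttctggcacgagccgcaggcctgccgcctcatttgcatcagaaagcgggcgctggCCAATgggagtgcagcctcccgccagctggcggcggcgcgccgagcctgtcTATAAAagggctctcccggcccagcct

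The windows of Gadd45b and Gadd45g share a layout that the window of Gadd45a holds in part. Both have an E-box, whose first base lies 185 and 142 bases before the start, then at least 1 CCAAT box, and a TATAAA whose first base lies 46 and 27 bases before the start. Gadd45a has a CCAAT box 86 bases before the start and neither of the other matches. Among all 32851 such windows in the RefSeq table, 33.8% hold CCAAT, 12.4% TATAAA and 6.02% CACGTG. These are matches of letters, not binding sites.

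Sgk1 had the largest difference of the 10 genes. Its signal was 193 ± 19.4 with PBS and 796 ± 79.6 with miR-122, so the ranges of the errors lay far apart. The level went from -1.13 to 1.19, a difference of 2.32, and 85 of the 15023 genes (0.566%) had a larger one. With normexp, a background correction that pulls in folds of dim probes, Sgk1 was 3.97-fold higher, the lowest value of any setting. Csrnp1 had a signal of 1827 ± 183 with PBS and 4383 ± 438 with miR-122, again with no overlap of the errors. Its difference of 1.54 was exceeded by 257 genes, and its lowest value over the settings was 2.40-fold. Both genes have several annotated transcripts, 6 for Sgk1 and 4 for Csrnp1 among curated RefSeq entries, and 1 probe each, so the arrays do not tell which start was used. Of the 6 windows before starts of Sgk1, 2 hold TATAAA, 2 hold CCAAT, 1 holds CACGTG and 1 holds the interferon-stimulated response element. The same search found TGANTCA, the AP-1 motif, in 1 of the 4 windows of Csrnp1, where it occurs 2 times, against 6.75% of all windows.

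The polo-like kinase genes were higher by less than 2-fold. Plk2, a kinase of centriole duplication and of neurons, had a signal of 13944 ± 1394 with PBS and 20086 ± 2009 with miR-122, and Plk3, which responds to DNA damage and oxidative stress, had 714 ± 71.4 and 1142 ± 114. For both, the miR-122 signal was higher by more than the summed errors. The scaled differences were 0.80 for Plk2 and 0.95 for Plk3, 1.74-fold and 1.94-fold higher, and 0.15 (error 0.29) separated them. With quantile normalization, which forces both arrays to one distribution, Plk2 was 1.47-fold and Plk3 1.90-fold higher, and without scaling 1.44-fold and 1.60-fold. Neither passed 2-fold under any of the 10 settings.

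The Ier genes had the smallest differences of the set, with 1 exception. Ier5, known to act with heat shock factor HSF1, was measured by 2 probes. The brighter one had 69.3 ± 7.29 with PBS and 116 ± 11.8 with miR-122, and the dimmer one had 38.8 ± 4.57 and 55.3 ± 6.14. Both probes were higher on the miR-122 array, by 1.02 and 0.79, and these values differed by 0.23, less than their combined error of 0.32. The mean over both probes was 1.87-fold, and with normexp the brighter probe was 1.61-fold higher, so the place of Ier5 past 2-fold rests on the choice of probe and scaling; it held in 3 of the 10 settings. Ier3, a regulator of apoptosis and of NF-kB signalling, had 24353 ± 2435 with PBS and 28153 ± 2815 with miR-122, and Ier2, a nuclear protein, had 53.7 ± 5.80 and 59.4 ± 6.43. For these 2 genes the errors of the arrays overlapped. After scaling, Ier3 differed by 0.49 and Ier2 by 0.42, and without scaling by 0.21 and 0.14.

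Ier3 and Plk2 are shown with the 250 bases before their starts because each holds a match that none of the other single-start windows holds. In Ier3 capitals mark 2 CCAAT boxes and a match to the NF-kB motif, which lies on the opposite strand 92 to 83 bases before the start. In Plk2 capitals mark a match on the opposite strand to the interferon-stimulated response element and the cAMP response element TGACGTCA, which lies 62 to 55 bases before the start.
Ier3, chr17:35821463-35821712, plus strand: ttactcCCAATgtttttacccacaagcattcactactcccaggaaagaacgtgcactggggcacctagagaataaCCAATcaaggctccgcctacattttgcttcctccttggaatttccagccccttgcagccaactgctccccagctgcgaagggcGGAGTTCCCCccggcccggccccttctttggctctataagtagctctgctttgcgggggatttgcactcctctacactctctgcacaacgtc
Plk2, chr13:110394794-110395043, plus strand: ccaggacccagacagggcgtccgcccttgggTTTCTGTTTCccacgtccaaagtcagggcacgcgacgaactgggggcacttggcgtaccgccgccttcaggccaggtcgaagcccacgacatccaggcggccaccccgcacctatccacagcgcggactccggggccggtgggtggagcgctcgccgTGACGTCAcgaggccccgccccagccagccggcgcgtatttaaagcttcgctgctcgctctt

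The NF-kB motif as searched occurs in 3.90% of all windows, TGACGTCA in 1.55% and the interferon-stimulated element in 2.98%. The CArG box, the site of serum response factor, occurs in 1.47% of all windows and in 0 of the 17 windows of the 9 genes for which the table holds one. That count says only that the letters are not in these 250 bases. The interferon-gamma activated site, TTCNNNGAA, was in 1 window, a start of Sgk1, where it overlaps a CCAAT box, against 7.02% of all. The window of Ier5 holds 2 CCAAT boxes and no other match, and the window of Plk3 holds none of the 9 motifs.

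In order of difference the genes ran Sgk1, Gadd45g, Csrnp1, Gadd45b, Gadd45a, Ier5, Plk3, Plk2, Ier3 and Ier2. Only 2 of the 9 steps between neighbours exceeded the combined scanner error of the probes: Sgk1 stood 0.52 above Gadd45g, and Plk2 stood 0.32 above Ier3. The others were steps of 0.06 to 0.28. Since different probes of one gene varied with a pooled standard deviation of 0.30 and each condition had 1 sample, no step of the order can be read as fixed. When all genes were cut into 10 equal bins of mean level, the 10 genes lay in 6 of them. In those 6 bins the median difference of all genes was between -0.03 and 0.14, and between 3.60% and 8.12% of genes were past 2-fold upward.

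**Figure D3:**
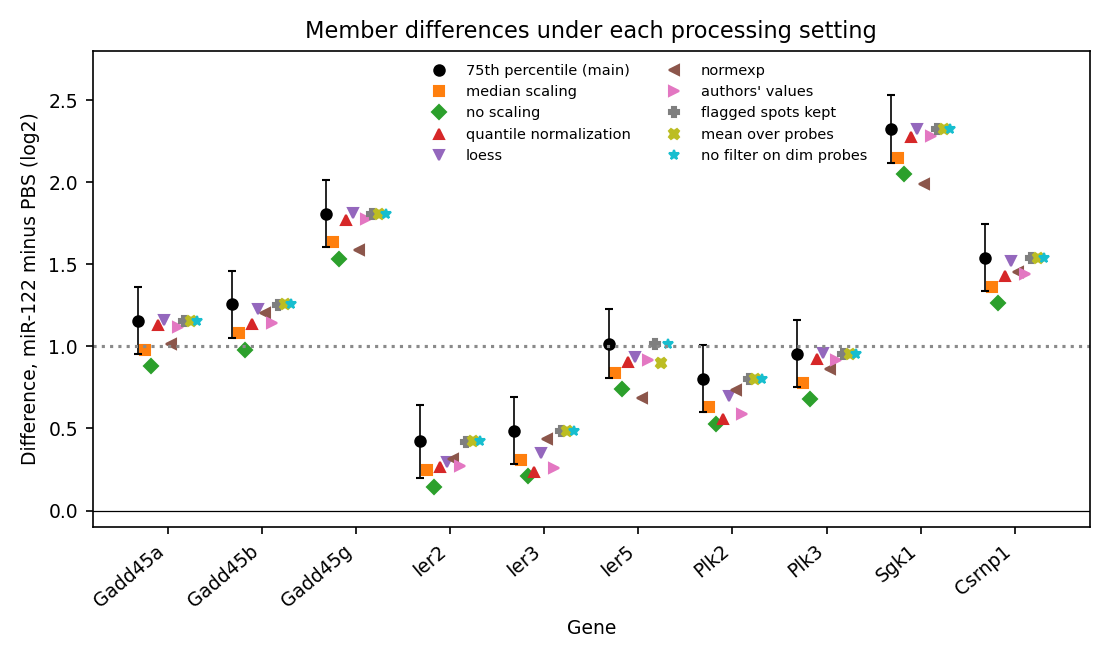
Log2 difference (miR-122 minus PBS) of the 10 genes under the main scaling and 9 alternatives, with bars for the error of the scanner software on the main value and a dotted line at 2-fold. Sgk1, Gadd45g and Csrnp1 lie above the dotted line under every setting, Gadd45b under 9 of 10, Gadd45a under 8 of 10 and Ier5 under 3 of 10.

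Genes that act with these proteins lay on both sides of 0. Of 58 related genes, 53 were measured above background on the pair of arrays. Among those, 1 passed 2-fold upward and 4 downward, or 1.89% and 7.55%, against 4.57% and 1.78% of all genes. Their median difference was 0.13, with 32 positive and 21 negative values, and it was -0.05 with median scaling and -0.15 without scaling. Over all genes the median was 0.09 and 60.3% were positive under the main scaling, and 27 of the 53 lay above that median. The 4 lower genes were Plk1, the main mitotic polo-like kinase (3.13-fold lower), Cdk1, the mitotic kinase that Gadd45 proteins bind (2.37-fold), Smad3, which carries TGF-beta signals (2.24-fold), and Ccnb1, cyclin B1 (2.13-fold). The higher gene was Nedd4l, a ubiquitin ligase and substrate of SGK1, at 2.24-fold. Its second probe had a difference of -0.02, and it fell short of 2-fold with median scaling, without scaling and as the mean over probes. The 3 probes of Cdk1 ran from -1.40 to 0.12, and their mean did not reach 2-fold. With normexp neither Ccnb1 nor Smad3 reached it.

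Within the polo-like kinase family the members and their relatives lay on opposite sides of 0. Plk2 and Plk3 had differences of 0.80 and 0.95, whereas Plk1 had -1.65, Plk4, the kinase of centriole duplication, -0.96, and Plk5 -0.57. Each of these 5 genes kept its sign under the 10 settings. Among the 14 measured partners and kinases of Gadd45 proteins, 7 had positive and 7 negative differences with a median of -0.06. The checkpoint gene Cdkn1a, which encodes p21 and was named after its value was seen, was 1.99-fold higher by its brighter probe and had 0.40 on the other. The relatives of other members did not pass 2-fold by the probe used: Ier5l had a difference of 0.52 and Csrnp2 of 0.41, Sgk3 of 0.08 with a second probe at 1.03 and a sign that turned with median scaling and without scaling, and Csrnp3 was well above background on 1 array only. Sgk2 had no probe well above background. Of the 14 measured genes around Sgk1, only Nedd4l passed 2-fold, and the glucocorticoid-responsive genes Tsc22d3, Per1 and Fkbp5, also named after their values were seen, had 0.62, 0.56 and -0.26.

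**Figure D4:**
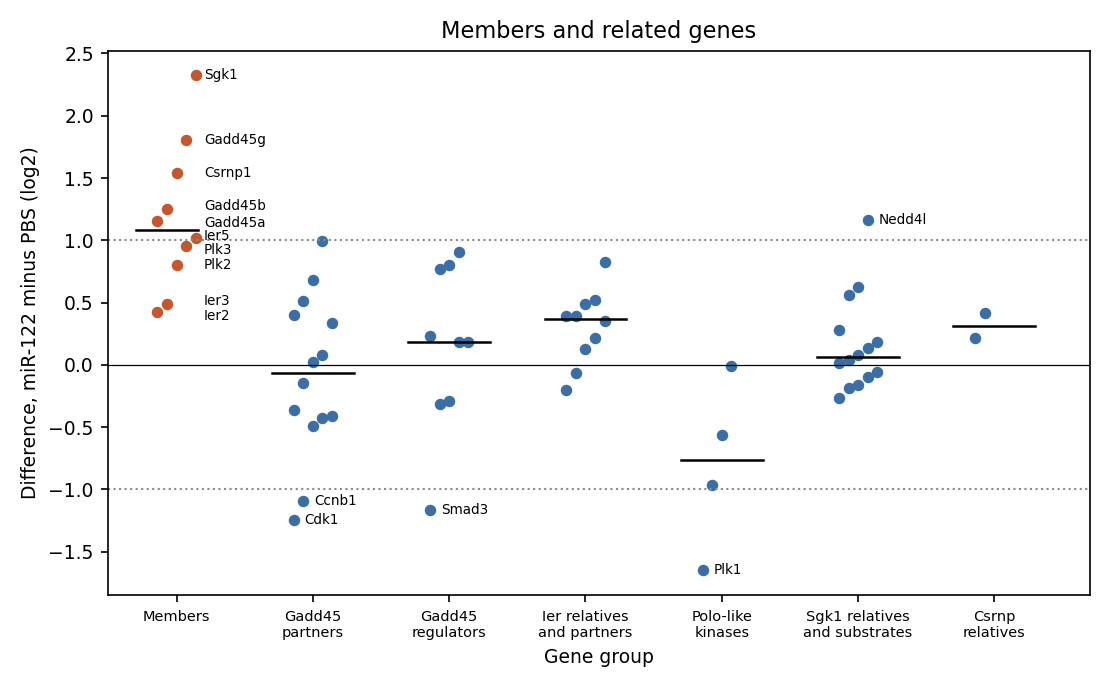
Log2 differences (miR-122 minus PBS) of the 10 genes and of 53 related genes in 6 groups, each point 1 gene, with a horizontal bar at the median of each group and dotted lines at 2-fold in each direction. The points of the 10 genes all lie above 0, while the polo-like kinase group lies below 0 and the others lie on both sides or close above it. The polo-like kinase group also holds Sipa1l1, which is not a Plk gene. Its point, at -0.01 with an error of 0.21, is not clear of 0.

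Other immediate early genes had mostly positive differences. Of 30 such genes, none of them in the set (AP-1, Egr, Nr4a, Klf and Dusp genes, and others such as Zfp36, Myc, Srf and Btg2), 28 were measured above background on the pair of arrays. Of the 28, 9 passed 2-fold upward (32.1%) and 1 downward (3.57%), against 4.57% and 1.78% of all genes. Their median difference was 0.70, against 0.09 over all genes. The positive end was Ppp1r15a (1.78), Dusp6 (1.52) and Atf3 (1.51), and the negative end Egr2 (-1.32), Fos (-0.89) and Fosl2 (-0.68), whose other probe had 0.77. In all, 20 had positive and 8 negative differences, against 10 and 0 in the set, and this contrast was not tested. Over all genes 60.3% were positive under the same scaling, and 19 of the 28 lay above the median of all genes.

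For comparison, for each member the nearest measured protein-coding gene on either side was taken from the RefSeq gene order, which gave 20 genes. Of these, 0 passed 2-fold in either direction, which among 20 genes is near the 4.57% and 1.78% of all genes and says little about the neighbours. The median difference was 0.14 and ran from -0.14 to 0.15 over the settings, and the genes ranged from -0.48 for Gorasp1, beside Csrnp1, to 0.94 for Gng7, beside Gadd45b. Flot1, beside Ier3, had 0.58, above the 0.49 of Ier3 by less than the errors of either gene. The gene Tctex1d4 overlaps Plk3 and had 0.13. The reference genes Actb, Gapdh and Hprt had differences of 0.21, 0.18 and -0.25. Without scaling they were -0.07, -0.10 and -0.53.

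**Figure D5:**
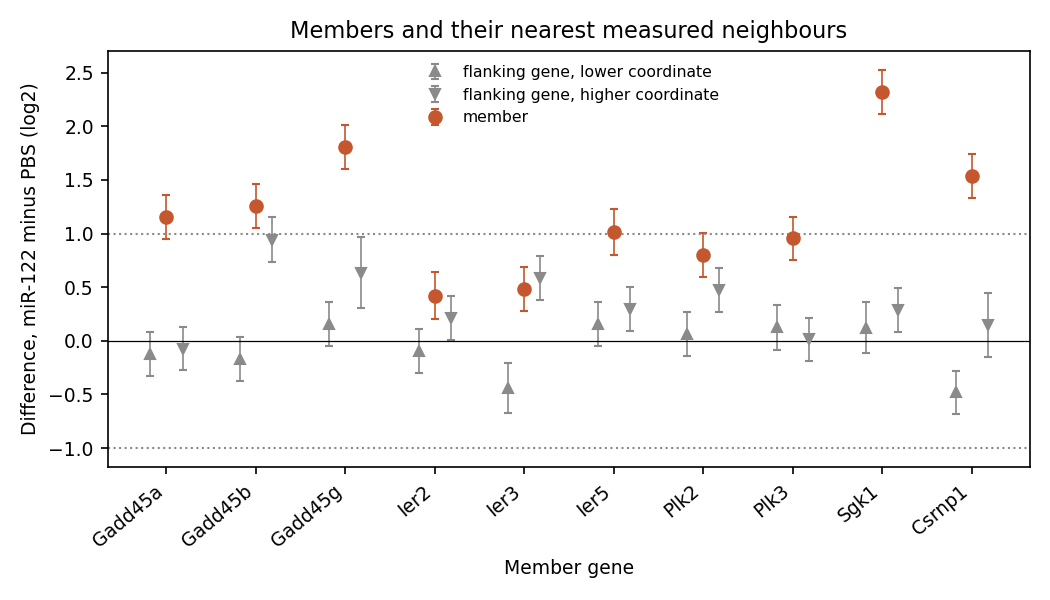
Log2 differences (miR-122 minus PBS) of each of the 10 genes (circles) and of its nearest measured protein-coding neighbours on either side (triangles), with bars for the error of the scanner software and dotted lines at 2-fold. The neighbours lie between -0.48 and 0.94, below the member in every case except Flot1 beside Ier3.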

How the data were processed

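The deposited scanner files were written by Agilent Feature Extraction, version 11.0.1.1 in the file headers. The intensities used are its processed signals, which per the file headers have the background subtracted. Each has an error, and the arrays were not scaled to each other. The normexp setting started instead from the median signal and the median background of each spot. The deposited series matrix holds the authors' log2 values; the sources used here do not state how they were normalized. Each column correlated at 0.997 across probes with the log2 signal of its own array. Control spots (1377 of 44397) and flagged spots (145 on the PBS and 196 on the miR-122 array) were left out, no spot was saturated, and spots of a probe were averaged. Accessions without versions were matched to a RefSeq gene table of GRCm38.p6, which named 27234 of 39429 probes. Where a gene had several probes, the one with the highest mean level was used, out of the probes flagged above background on 1 array or both. Errors of a difference combine the relative errors of both spots. The members, the gene lists and the tests were chosen with earlier results of these data known. The rule for named genes takes all members, related genes past 2-fold, close relatives, 3 reference genes and the 3 largest differences in each direction of the comparison list; cell type markers, flanking genes, Cdkn1a, the glucocorticoid-responsive genes and the examples of the comparison list's make-up lie outside it and were named after their values were seen. The step that counts genes was tested on simulated data, made from the PBS array with a spot noise of 0.08, below the scanner error of about 0.20. Such data cannot show how the counts hold against the spread between cultures or between probes of a gene. Alternatives were other scalings, normexp with an offset of 50, loess with a span of 0.3, the authors' values, flagged spots kept, the mean over probes, no filter on dim probes, and other thresholds. R 4.3.3 with limma 3.58.1 and Python 3.11.15 with pandas 2.3.3 were used.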

Additional observations from a re-analysis of the deposited data

How the results depend on the processing

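Of 90 alternative values of the 10 member differences, all were positive, and 73 moved by less than the error of the scanner software, about 0.20. The count of members at least 2-fold higher was 6, between 4 and 6 under the other scalings, background corrections and filters, 3 without scaling, and 1 at a threshold of 4-fold. Of the related genes, 1 was at least 2-fold higher, but 0 with median scaling, without scaling, as the mean over probes and at 4-fold. At 1.5-fold 8 (15.1%) were higher, but the share of all genes past 1.5-fold is not given here, so that count cannot be judged. In the other direction, 4 were at least 2-fold lower. That count was 5 with median scaling, without scaling, with quantile normalization, with loess and in the authors' values. It was 3 as the mean over probes, 2 with normexp and 0 at 4-fold. The median of the related genes, 0.13, was -0.15 without scaling and -0.05 with median scaling. The cause of these moves was not tested; the median of all genes shifted by -0.28 without scaling, -0.18 with median scaling, -0.13 with quantile normalization and -0.12 in the authors' values. Over all genes, 687 passed 2-fold upward and 268 downward, against 471 and 456 with median scaling, 394 and 579 without scaling, 389 and 142 with normexp, and 1358 and 451 of 20659 genes with no filter on dim probes. Alternatives for the immediate early genes and the flanking genes were chosen after seeing the data. Under them 7 to 10 of the immediate early genes were at least 2-fold higher, against 2.59% to 6.57% of all genes. At least 2-fold lower were 2 of them with median scaling and without scaling, and 1 under the other alternatives. Of the 20 flanking genes, 0 passed 2-fold in either direction under any alternative, which in so short a list says little. No paired analysis was possible because each condition holds 1 array. Ier2 and Ier5 had the dimmest signals of the set and the largest errors, 0.21 to 0.23.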
